A study of Mus musculus with 2 samples.

Results

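The genes described here are 40 genes of the cell cycle and mitosis, 15 assigned to S phase and 25 to G2/M, measured in cultured myofibroblasts of the mouse small intestine. They were chosen by gene symbol from a list of such genes, and all 40 were found among the 37309 genes measured. A dividing cell copies its DNA in S phase and separates the copies in mitosis, and separate waves of transcription serve these steps. E2F factors drive the genes for DNA replication as cells pass from G1 into S phase, and the MuvB complex with B-Myb and FOXM1 drives the genes for mitosis in G2 and M phase. In fibroblast-like cells the RNAs of both waves are low at rest and high in cycling cells.

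RNA sequencing compared cultures of intestinal subepithelial myofibroblasts (ISEMFs), the contractile stromal cells under the gut epithelium, from the small intestine of C57BL/6 mice. The supportive population (B19) came from neonatal mice and could sustain epithelial growth, whereas the non-supportive population (B20) came from adult mice. Both were grown as cultured cells without a transgene, and the sources used here do not state the passage or the density of the sequenced cultures, or whether animals were pooled. The name of the deposited table attaches the tag P16 to B19 and P3 to B20. The tags are not explained, and if they are passage numbers the cultures also differed widely in passage. Each population had 1 library, so no difference has a replicate check, and the population, the age of the mice and the culture history, passage included, cannot be told apart. The supportive library held 50674472 reads on genes and the other 49615497. All 10 myofibroblast markers had a mean level of at least 1 RPKM (reads per kilobase of exon, scaled to the size of the library). Their summed RPKM was 2659 versus 3326, supportive before non-supportive here and throughout. The sum hides differences in both directions. By the 2-fold rule given below, 2 of these markers were higher, Col1a2 (6.88-fold) and Pdgfrb (3.66-fold). By the same rule 3 were lower, Des (5.92-fold), Pdgfra (3.59-fold) and Cnn1 (2.37-fold). The 8 epithelial and 5 endothelial markers summed to 0.509 versus 0.954 and 0.152 versus 0.239 RPKM. Cdx2 had 0 reads in both libraries, and Epcam, Krt8, Krt18, Cdh5 and Pecam1 had 0 reads in the supportive one. Cdh1 (159 versus 18 reads), Muc2 (27 versus 3 reads) and the endothelial Tek (65 versus 2 reads) were higher there, whereas 5 epithelial and 4 endothelial markers were lower. By the counting interval given below, only 2 of these epithelial and 3 of these endothelial markers were lower beyond counting error. The rest had few reads, Epcam 0 versus 5, Krt8 0 versus 4, Vil1 7 versus 8 and Emcn 10 versus 13. The 6 neuronal and glial markers summed to 8.67 versus 3.72 RPKM, nearly all from S100b and Tubb3, which had opposite directions. S100b was at 6.69 versus 0.116 RPKM and Tubb3 at 1.92 versus 3.52 RPKM, so the higher sum came from S100b. The glial factor Sox10 had 0 reads in both libraries. The 10 macrophage and other leukocyte markers were all lower in the supportive library, at 9.55 versus 129 RPKM, and Tyrobp, Emr1, Itgam and Ptprc had 0 reads there. The part of these other cells in the values of the cell cycle genes was not tested.

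The cell cycle genes differed little between the populations, and most G2/M genes were slightly higher in the supportive library. A difference was called when log2(RPKM + 0.1) differed by at least 2-fold among genes with a mean RPKM of at least 1, which 38 of the 40 genes reached. None of the 38 was 2-fold higher in the supportive library, compared with 8.09% of the 9493 genes past the same minimum. The 2 genes that were 2-fold lower, against 8.25% of all genes (16.3% in either direction), were both S-phase genes, Ccne1, which encodes a cyclin that starts S phase, and Rrm2, the small subunit of ribonucleotide reductase. The median log2 ratio was 0.10 over the 40 genes and -0.07 over all genes past the minimum. It was 0.24 over the 25 G2/M genes, of which 20 were higher in the supportive library, against 44.5% of all genes past the minimum. It was -0.08 over the 15 S-phase genes, of which 10 were lower, against 55.5% of all genes. Without the 4 G1/S regulators, 5 S-phase genes were higher and 6 lower, so the S-phase genes as a class lay close to all genes. In bulk RNA, fewer cells in a phase and less RNA per cell cannot be told apart.

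Reads per gene ran from 358 to 32726 in supportive ISEMFs and from 250 to 25682 in non-supportive ISEMFs. They summed to 158718 and 135129 reads, 0.313% and 0.272% of the reads on genes. Their summed RPKM was 342 versus 317, their median RPKM 5.86 versus 4.92, and none was at 0 reads in either library. For each ratio an exact 95% interval was taken from the share of reads, which covers counting error only and compares the libraries, not the populations. It lay above equality for 19 of the 40 genes and below it for 10, against 25.2% and 30.2% of all genes with a read. Among genes past the minimum it lay above equality for 18 of the 38 and below it for 9, against 35.8% and 46.2%. The gene with the highest RPKM as deposited was Mki67, the proliferation antigen that coats mitotic chromosomes, with 45.5 versus 36.7 RPKM. With the length of the longest coding transcript Top2a was above it, at 54.7 versus 41.2 RPKM. By the deposited values Mki67 ranked 422 and 651 among 22379 protein-coding genes. The RNA of Mki67 was therefore at a high level in both libraries, somewhat higher in the supportive one. By level alone the genes ranged widely, from 0.531 RPKM for Cdc6 to 45.5 RPKM for Mki67 in the supportive library.

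**Figure D1:**
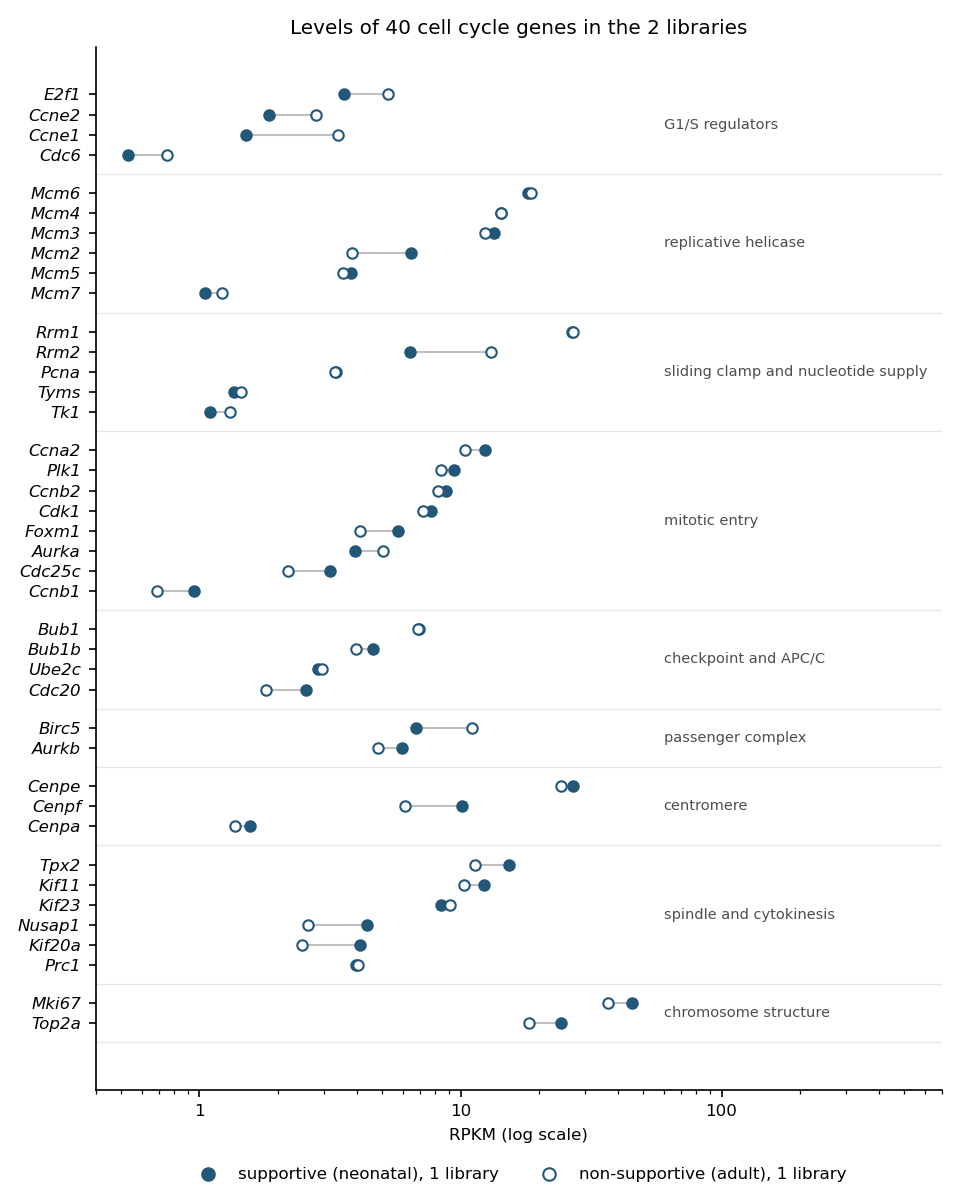
RPKM on a log axis of the 40 cell cycle genes, grouped by role, in the 1 supportive library (filled circles) and the 1 non-supportive library (open circles), with a line joining the libraries. Most pairs of circles lie close together, the 4 G1/S regulators all have the filled circle on the left, and Mki67 has the highest deposited RPKM in both libraries, at 45.5 and 36.7 RPKM.

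The promoters of the cell cycle genes were searched for letters of elements known from both waves. RefSeq promoter sequences (GRCm38.p6) were matched by symbol for 32 of the 40 genes, and the 250 bases before the start were searched on both strands. The letters searched were the CCAAT box, bound by NF-Y, the cell cycle homology region (CHR), taken as TTTGAA or TTCGAA and bound by MuvB, and the E2F site, taken as TTTCCCGC, TTTGGCGC, TTTCGCGC or TTTGCCGC. The table held 20 windows for 19 G2/M genes and 14 for 13 S-phase genes, since Prc1 and Mcm7 had 2 each. A CCAAT box was in 18 of 20 G2/M windows (90%) and 9 of 14 S-phase windows (64.3%), against 33.8% of all 32851 promoter windows of this length. A CHR was in 9 of 20 G2/M windows (45%) and 2 of 14 S-phase windows (14.3%), against 17.1% of all windows. An E2F site was in 4 of 14 S-phase windows (28.6%) and 1 of 20 G2/M windows (5%), against 1.86% of all windows. The 79 matches shared no base between motifs. A match of letters is a description and no evidence of binding in these cells. A missing match covers only these exact letters in these 250 bases, and does not show that a gene lacks the element.

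The promoters printed here are those of the genes with the lowest and the highest log2 ratio in each class (Ccne1 and Mcm2 for S phase, Birc5 and Nusap1 for G2/M), of Rrm2, the other gene lower by 2-fold, and of Top2a and Mcm6, chosen after the search for their many matches. Each is the 250 bases before the start, 5′ to 3′ on the strand of the gene, with matches to any of the 3 motifs in capitals.
Ccne1, chr7:38107491-38107740, minus strand: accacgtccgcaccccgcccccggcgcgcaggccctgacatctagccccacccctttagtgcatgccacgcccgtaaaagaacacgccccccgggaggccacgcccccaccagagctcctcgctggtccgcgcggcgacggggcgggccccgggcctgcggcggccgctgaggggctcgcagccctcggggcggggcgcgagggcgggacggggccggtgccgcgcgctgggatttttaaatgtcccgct
Rrm2, chr12:24708004-24708253, plus strand: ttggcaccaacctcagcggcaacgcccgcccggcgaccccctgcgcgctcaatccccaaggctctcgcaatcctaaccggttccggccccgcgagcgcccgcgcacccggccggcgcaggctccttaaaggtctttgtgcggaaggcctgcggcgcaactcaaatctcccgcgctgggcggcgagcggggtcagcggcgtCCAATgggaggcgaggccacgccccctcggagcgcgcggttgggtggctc
Mcm2, chr6:88898781-88899030, minus strand: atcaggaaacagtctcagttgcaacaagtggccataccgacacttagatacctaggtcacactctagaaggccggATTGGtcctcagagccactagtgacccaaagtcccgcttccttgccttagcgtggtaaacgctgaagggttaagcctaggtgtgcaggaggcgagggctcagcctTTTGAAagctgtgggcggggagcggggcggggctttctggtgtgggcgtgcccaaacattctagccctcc
Mcm6, chr1:128359706-128359955, minus strand: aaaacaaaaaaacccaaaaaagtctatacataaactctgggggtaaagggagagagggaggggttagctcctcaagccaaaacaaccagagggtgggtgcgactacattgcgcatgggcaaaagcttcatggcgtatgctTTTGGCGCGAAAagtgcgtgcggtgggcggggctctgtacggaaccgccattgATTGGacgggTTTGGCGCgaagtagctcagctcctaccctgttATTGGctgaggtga
Birc5, chr11:117848987-117849236, plus strand: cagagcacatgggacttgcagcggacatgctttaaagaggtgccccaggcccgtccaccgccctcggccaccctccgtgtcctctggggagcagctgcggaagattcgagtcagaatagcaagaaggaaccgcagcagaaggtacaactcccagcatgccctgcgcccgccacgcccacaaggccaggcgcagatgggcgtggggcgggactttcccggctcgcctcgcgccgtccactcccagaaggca
Nusap1, chr2:119618048-119618297, plus strand: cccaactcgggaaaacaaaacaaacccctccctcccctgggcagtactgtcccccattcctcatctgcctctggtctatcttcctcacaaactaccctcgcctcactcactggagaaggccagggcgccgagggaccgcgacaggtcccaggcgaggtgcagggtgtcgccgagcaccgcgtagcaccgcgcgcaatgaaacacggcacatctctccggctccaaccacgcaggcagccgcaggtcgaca
Top2a, chr11:99024190-99024439, minus strand: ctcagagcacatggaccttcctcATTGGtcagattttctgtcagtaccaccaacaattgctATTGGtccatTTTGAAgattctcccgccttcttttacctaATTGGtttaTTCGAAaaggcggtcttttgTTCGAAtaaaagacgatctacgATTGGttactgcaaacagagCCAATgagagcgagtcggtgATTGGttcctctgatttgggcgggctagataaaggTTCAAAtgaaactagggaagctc
The Ccne1, Birc5 and Nusap1 windows held none of these letters, Rrm2 had 1 CCAAT box, and Mcm2 had 1 CCAAT box and 1 CHR. The Mcm6 window held 2 CCAAT boxes and 3 E2F sites, of which a pair overlapped. Top2a, with 6 CCAAT boxes and 4 CHR matches, held the most matches of the 7. Of the 4 genes at the ends of the classes, only Mcm2 had a match.

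The 4 regulators of the G1/S transition were all lower in supportive ISEMFs (median log2 ratio -0.56). Ccne1 (chr7:38883003-38892553 in mm9, minus strand, 11 exon blocks) encodes cyclin E1, which activates CDK2, and had 362 versus 791 reads and 1.51 versus 3.40 RPKM. This was 2.25-fold lower, with an interval of 1.98 to 2.55. The adult culture thus had the higher level. Its partner gene Ccne2 (cyclin E2) had 962 versus 1411 reads and 1.85 versus 2.79 RPKM, 1.51-fold lower (1.39 to 1.64). E2f1, the transcription factor that turns on replication genes, had 1516 versus 2185 reads and 3.57 versus 5.29 RPKM, 1.48-fold lower (1.39 to 1.58). Cdc6, which loads the helicase on replication origins, had 360 versus 497 reads and 0.531 versus 0.754 RPKM, below the minimum level, and was 1.42-fold lower (1.24 to 1.63). All 4 intervals lay below equality, against 46.2% of all genes past the minimum and 30.2% of all genes with a read. Of all genes past the minimum, 55.5% were lower. The cyclin E1 gene had the lowest ratio of the 40.

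The MCM genes, which encode the 6 subunits of the replicative helicase, did not share this direction, with a median log2 ratio of 0.05. Mcm2 (chr6:88833469-88848774, minus strand, 16 exon blocks) had 1562 versus 902 reads and 6.49 versus 3.85 RPKM. It was 1.68-fold higher (1.55 to 1.83), the highest ratio of the set. The other 5 subunits differed by less. Mcm3 had 13.4 versus 12.5 RPKM (ratio 1.07, interval 1.02 to 1.13), and Mcm7 had 1.05 versus 1.22 RPKM (ratio 0.860, interval 0.756 to 0.978). The intervals of Mcm4 (14.4 versus 14.3 RPKM), Mcm5 (3.82 versus 3.53 RPKM) and Mcm6 (18.2 versus 18.6 RPKM) included equality. The subunits act as 1 ring of equal parts, but their RNA levels were uneven. The RPKM of Mcm6 was 2.80 times that of Mcm2 in the supportive library and 4.83 times in the non-supportive library.

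Of the 5 genes for the sliding clamp and the supply of deoxynucleotides, only Rrm2 differed by 2-fold. Rrm2 (chr12:25393106-25399011, plus strand, 9 exon blocks) encodes the subunit of ribonucleotide reductase that is made in S phase and destroyed afterwards. It had 1709 versus 3374 reads and 6.43 versus 13.1 RPKM, 2.03-fold lower, with an interval of 1.92 to 2.15 that reaches to both sides of 2-fold. Its log2 ratio was -1.01, and -0.96 with TMM scaling, which put it outside the call. The large subunit gene Rrm1 had 7656 versus 7460 reads and 26.8 versus 26.9 RPKM (ratio 0.997, interval 0.966 to 1.03). The RPKM of Rrm1 was therefore 4.17 times that of Rrm2 in the supportive library and 2.06 times in the non-supportive library. With the length of the longest coding transcript it was 2.46 and 1.21 times. Tyms, thymidylate synthase, had 1.36 versus 1.45 RPKM (ratio 0.939, interval 0.856 to 1.03), and Tk1, thymidine kinase of S phase, had 1.09 versus 1.30 RPKM (ratio 0.838, interval 0.733 to 0.957). Pcna, the sliding clamp that holds the polymerase on DNA, had 676 versus 655 reads and 3.33 versus 3.32 RPKM (interval of the ratio 0.899 to 1.12).

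Of the 8 genes of mitotic entry, 7 were higher in the supportive library and 6 of these had intervals above equality. Of all genes past the minimum, 44.5% were higher and 35.8% had intervals above equality. Foxm1, which drives the transcription of mitotic genes, had 3333 versus 2321 reads and 5.77 versus 4.14 RPKM, 1.40-fold higher (1.32 to 1.47). Cdc25c, the phosphatase that activates CDK1, had 439 versus 294 reads and 3.16 versus 2.18 RPKM, 1.45-fold higher (1.25 to 1.69). Ccnb1, the main mitotic cyclin, had 358 versus 250 reads and 0.953 versus 0.685 RPKM, 1.39-fold higher (1.18 to 1.64). These were the 3 highest ratios of this group. Ccna2 (cyclin A2) had 12.4 versus 10.4 RPKM (ratio 1.19, interval 1.14 to 1.24), and Plk1, a kinase of spindle assembly, had 9.42 versus 8.44 RPKM (ratio 1.12, interval 1.03 to 1.20). Cdk1, the mitotic kinase itself, had 7.69 versus 7.19 RPKM (ratio 1.07, interval 1.01 to 1.13), and the interval of Ccnb2 (8.83 versus 8.21 RPKM) included equality. Aurka, the kinase of the spindle poles, was the gene of this group with the other direction, at 3.96 versus 5.03 RPKM and 1.27-fold lower (1.17 to 1.38).

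The genes of the spindle checkpoint and of the anaphase-promoting complex (APC/C) had small ratios apart from Cdc20. Cdc20, the APC/C activator that the checkpoint holds back, had 452 versus 310 reads and 2.55 versus 1.80 RPKM, 1.42-fold higher (1.22 to 1.64). The checkpoint kinase genes were at 4.61 versus 3.97 RPKM for Bub1b (ratio 1.16, interval 1.08 to 1.25) and 6.93 versus 6.86 RPKM for Bub1 (ratio 1.01, interval 0.955 to 1.07). Ube2c, the ubiquitin-conjugating enzyme of the APC/C, had 2.85 versus 2.96 RPKM (ratio 0.965, interval 0.854 to 1.09).

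The 2 measured genes of the chromosomal passenger complex had opposite directions. Birc5 (chr11:117710565-117717069, plus strand, 3 exon blocks) encodes survivin, which anchors the complex at the centromere, and had 2260 versus 3627 reads and 6.73 versus 11.1 RPKM. It was 1.65-fold lower (1.57 to 1.74), the lowest ratio of the G2/M genes. Aurkb, the kinase of the same complex, had 1354 versus 1064 reads and 5.95 versus 4.81 RPKM, 1.24-fold higher (1.14 to 1.34). The RPKM of Aurkb was 0.884 times that of Birc5 in the supportive library and 0.433 times in the non-supportive library. With the length of the longest coding transcript these values were 1.02 and 0.502, so which gene had the higher level in the supportive library depends on the length used.

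The genes of the centromere, the spindle and mitotic chromosomes held 3 of the 4 highest ratios. Cenpf, a large protein of the outer kinetochore, had 13517 versus 7994 reads and 10.1 versus 6.15 RPKM, 1.64-fold higher (1.60 to 1.69). Nusap1 (chr2:119444034-119476980, plus strand, 11 exon blocks), which binds and bundles spindle microtubules, had 1770 versus 1025 reads and 4.37 versus 2.60 RPKM, 1.68-fold higher (1.55 to 1.81). Kif20a, a kinesin of the central spindle, had 1154 versus 674 reads and 4.12 versus 2.48 RPKM, 1.66-fold higher (1.51 to 1.83). On the scale of log2(RPKM + 0.1), these and Mcm2 were the 4 genes at least 1.5-fold higher, out of 38, against 15.2% of all genes. Ccne1, Rrm2 and Birc5 were the 3 genes at least 1.5-fold lower on that scale, against 18.5% of all genes, and the 7 together compare with 33.7%. Ccne2, 1.51-fold lower by RPKM, fell just short of it.

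The remaining genes of these groups differed less. Tpx2, which starts microtubule growth near chromosomes, had 15.3 versus 11.3 RPKM (ratio 1.35, interval 1.30 to 1.40). Top2a, the topoisomerase that disentangles sister chromatids and whose promoter held the most matches of those printed, had 20404 versus 14933 reads and 24.3 versus 18.3 RPKM (ratio 1.33, interval 1.30 to 1.36). Mki67 had 32726 versus 25682 reads (ratio 1.24, interval 1.22 to 1.26). These abundant genes had narrow intervals and were moderately higher in the supportive library. Kif11, the motor that separates the spindle poles, had 12.3 versus 10.4 RPKM (ratio 1.18, interval 1.13 to 1.24), and Cenpe, a kinesin at the kinetochore, had 26.9 versus 24.2 RPKM (ratio 1.11, interval 1.08 to 1.14). Cenpa, the histone H3 variant of centromeres, had 1.57 versus 1.37 RPKM (ratio 1.14, interval 0.994 to 1.32). The genes Kif23 (8.43 versus 9.09 RPKM, ratio 0.928, interval 0.879 to 0.980) and Prc1 (3.98 versus 4.04 RPKM, ratio 0.987, interval 0.947 to 1.03), whose products build the central spindle for cytokinesis, lay on the other side of equality, the latter with an interval that included it.

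**Figure D2:**
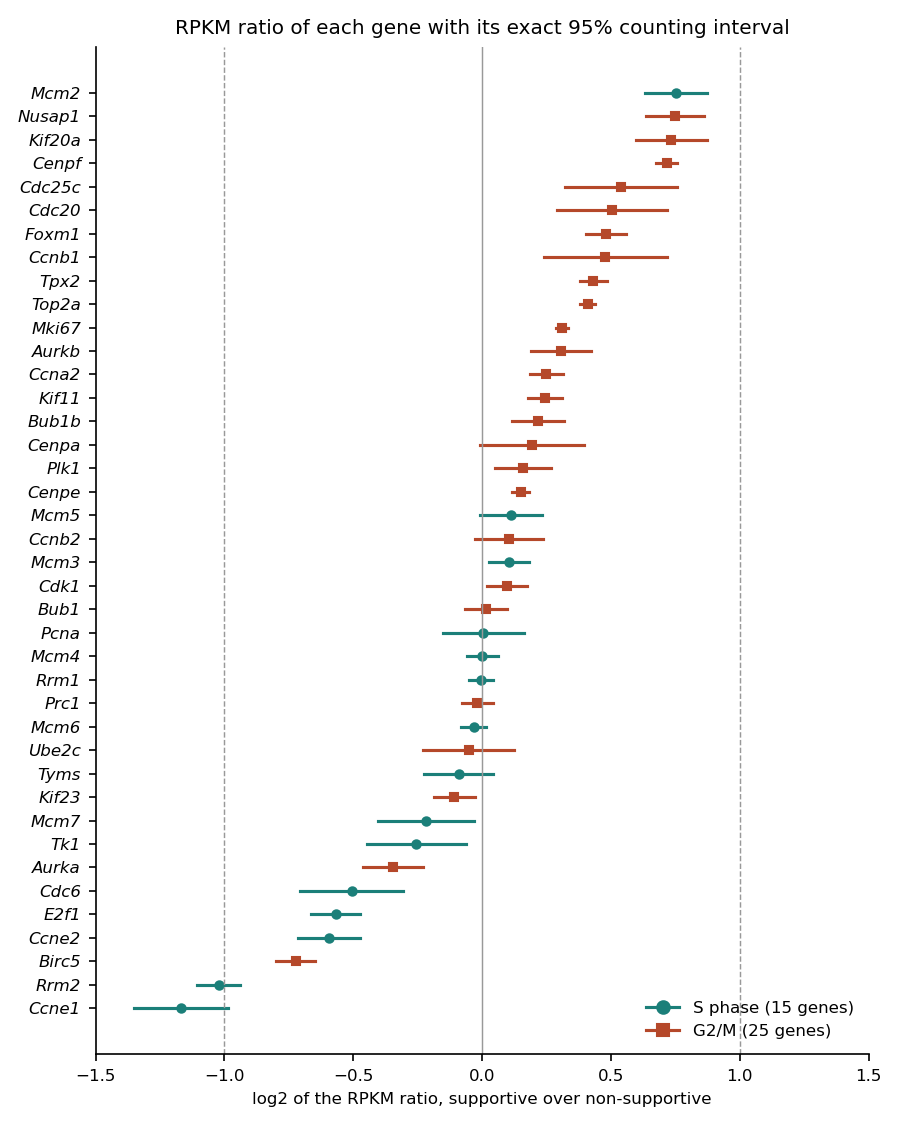
The log2 of the RPKM ratio of each cell cycle gene, supportive over non-supportive, with the exact 95% interval from counting error, sorted by ratio and marked by class, with dashed lines at 2-fold. The genes run from Ccne1 and Rrm2, near or past the left line, to Mcm2, Nusap1, Kif20a and Cenpf on the right, with S-phase genes mostly in the lower part and G2/M genes mostly in the upper part.

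The classes were compared by the position of their genes. Of the 6 lowest ratios 5 belonged to S-phase genes, the other being Birc5, and of the 12 highest ratios 11 belonged to G2/M genes, the other being Mcm2. These cut-offs of 6 and 12 were not planned in advance, and the next lowest ratio belonged to Aurka, a G2/M gene. G2/M genes made up 25 of the 40 genes, so most of any such list could be theirs. The ranks are therefore a description only. The interval lay above equality for 17 and below it for 3 of the 25 G2/M genes, and above it for 2 and below it for 7 of the 15 S-phase genes. Among all genes past the minimum it lay above equality for 35.8% and below it for 46.2%. Among all genes with a read the shares were 25.2% and 30.2%. The S-phase count below equality was thus near the share of all genes past the minimum. Summed RPKM was 239 versus 204 over the G2/M genes (1.17 times) and 104 versus 112 over the S-phase genes (0.924 times). The S-phase median lay 0.33 below the G2/M median on the log2 scale, and 0.25 below it without the 4 G1/S regulators. With 1 library per population this gap has no test. Under other scalings of the libraries Mcm6, Rrm1, Prc1 and Ube2c, whose log2 ratios were small (at most 0.0504 in size), changed side, and the other 36 genes did not.

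Genes of the same classes outside the set had a smaller gap of the same sign. Over 32 other S-phase genes the median log2 ratio was -0.06, with 15 genes higher and 17 lower in the supportive library. Over 33 other G2/M genes it was 0.12, with 23 higher and 10 lower. Of all genes past the minimum 44.5% were higher. The medians differed by 0.18, compared with 0.33 within the set. Among the 27 other S-phase genes past the minimum level none differed by 2-fold. Rad51ap1, an S-phase gene below that level, had 438 versus 192 reads (2.22-fold higher, 1.87 to 2.64). Among the 32 other G2/M genes past the minimum level 2 were 2-fold higher and 0 lower, against 8.09% and 8.25% of all genes. Gas2l3, which links microtubules and actin, had 7174 versus 2730 reads (2.55-fold, 2.44 to 2.67). Cdca3, which takes part in mitotic entry, had 983 versus 364 reads (2.62-fold, 2.32 to 2.97). In the promoter search, the other G2/M genes held a CHR in 13 of 34 windows (38.2%) and an E2F site in 2 (5.88%), and the other S-phase genes held each in 5 of 24 windows (20.8%). The CCAAT box was about as frequent in both, in 24 of 34 (70.6%) and 16 of 24 windows (66.7%).

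**Figure D3:**
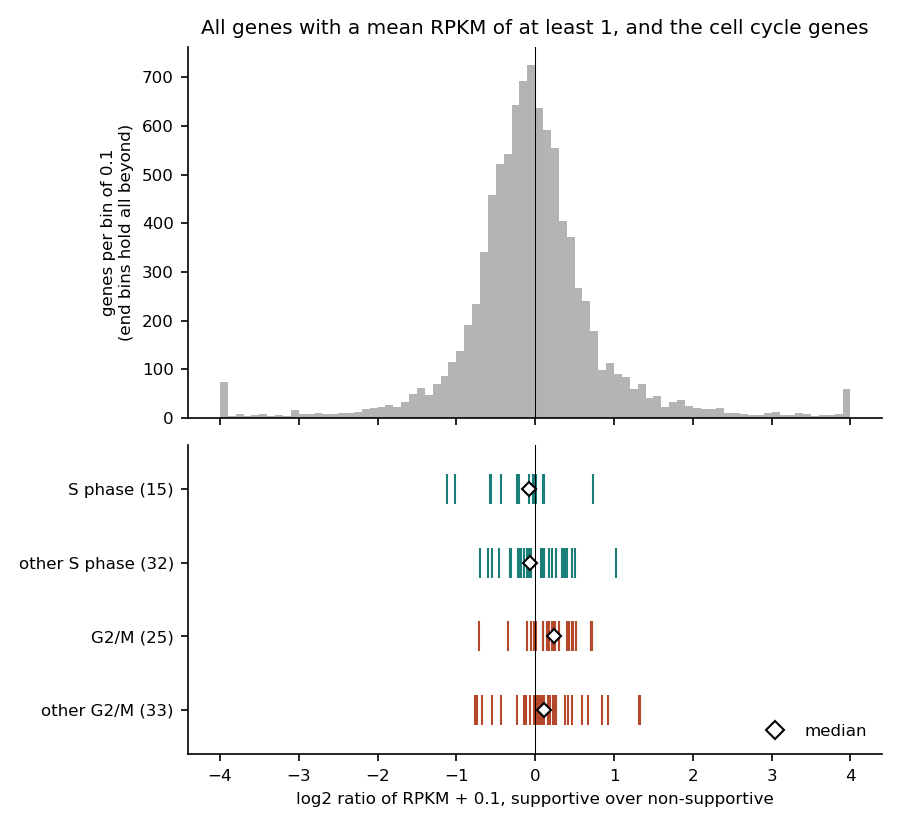
Top, number of genes per bin of 0.1 of the log2 ratio of RPKM + 0.1, supportive over non-supportive, for the 9493 genes with a mean RPKM of at least 1. Bottom, a tick for each gene of the 4 cell cycle lists with the median as a diamond, at -0.08 (S phase), -0.06 (other S phase), 0.24 (G2/M) and 0.12 (other G2/M).

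The cell cycle genes were packed more closely than genes in general. Their log2 ratios had an interquartile range of 0.42, against 0.77 over all genes past the minimum. Of the 38 genes past the minimum, 31 (81.6%) lay within 1.5-fold on the log2(RPKM + 0.1) scale, Ccne2 among them, against 66.3% of all genes. Their intervals excluded equality for 27 of the 38, against 82% of all such genes, and for 29 of the 40, against 55.4% of all genes with a read. The depth thus resolved ratios much smaller than 1.5-fold, and a share of intervals this large says only that the libraries differ beyond counting error.

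Upstream of these genes, 17 genes of entry into G1 were examined, 16 of them past the minimum. None was 2-fold higher and 2 were 2-fold lower, against 8.09% and 8.25% of all genes, and at 1.5-fold 0 were higher and 6 lower, against 15.2% and 18.5%. Cdk6, a kinase partner of the D cyclins, had 992 versus 18237 reads and 2.48 versus 46.9 RPKM, 18.9-fold lower (17.7 to 20.2). Cdc25a, the phosphatase that activates CDK2, had 584 versus 1274 reads, 2.24-fold lower (2.03 to 2.48). The D cyclins themselves were slightly higher, Ccnd1 at 175 versus 146 RPKM (ratio 1.20, interval 1.18 to 1.21), Ccnd2 at 355 versus 324 RPKM (ratio 1.09, interval 1.09 to 1.10) and Ccnd3 at 3.43 versus 2.64 RPKM (ratio 1.30, interval 1.15 to 1.47). Cdk4, the other kinase of the D cyclins and named after its values were seen, was also higher, at 11.4 versus 7.81 RPKM (ratio 1.46, interval 1.39 to 1.52). The genes for the 2 kinases therefore had opposite directions, and Cdk6 differed far more than any of the 40 cell cycle genes.

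Several cell cycle genes share sequence with other places in the genome, which bears on their levels because reads placed at more than 1 locus were left out. Each transcript was cut into all its windows of 50 bases, and each window was looked for elsewhere in mm9. No window was found elsewhere for 15 genes, at most 10% for 18, and more than 10% for 7, namely Ccnb1 (59.3%), Pcna (54.8%), Mcm7 (26.9%), Tk1 (24.8%), Tyms (18.1%), Cdc6 (13.0%) and Cdc20 (11.5%). Their levels are therefore uncertain, while the ratio between libraries compares the same windows. The highest shares belonged to Ccnb1 and Pcna, which have processed copies.

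**Figure D4:**
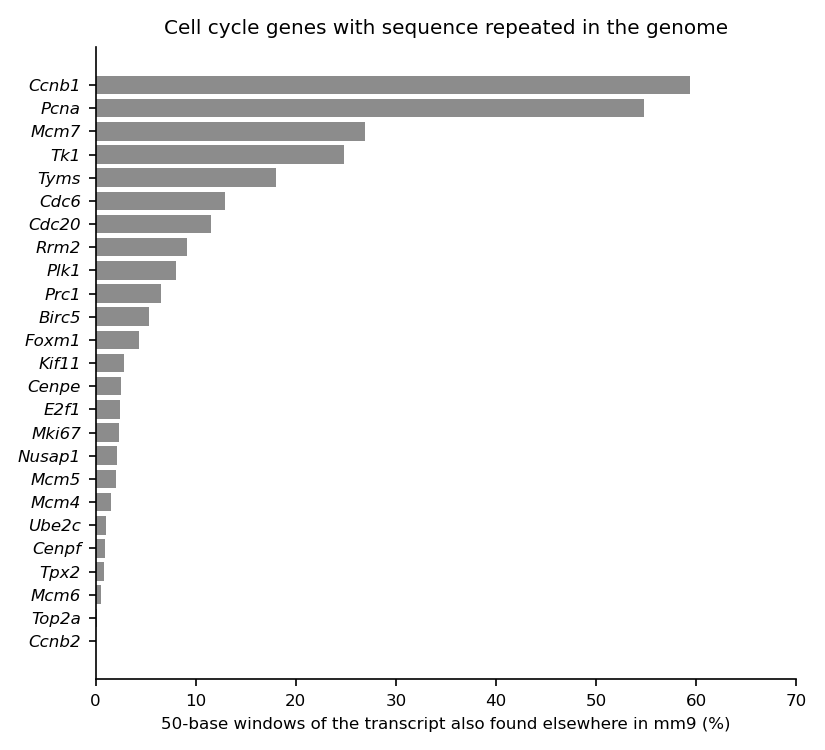
Share of the 50-base windows of the transcript also found elsewhere in mm9, in percent, for the 25 cell cycle genes with at least 1 such window. Ccnb1 and Pcna stand at over 50%, and the bars fall below 10% from Rrm2 on.

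For Pcna the copy took more reads than the gene. The processed pseudogene Pcna-ps2 (chr19:9357869-9358654 in mm9, plus strand) shared 556 windows (37.8%) with the Pcna transcript and had 3014 versus 2893 reads, 4.46 and 4.42 times those of Pcna. The sequence below, across the junction of exon 1 (lower case) and exon 2 (capitals) of Pcna, is shown because it is unbroken at chr19:9358065-9358114 and interrupted by an intron at the Pcna locus on chromosome 2.
Pcna, transcript positions 475 to 524: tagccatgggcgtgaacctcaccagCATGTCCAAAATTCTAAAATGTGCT
A read of these letters aligns without a gap to the copy and only with a splice to the gene. How many of the reads counted on the pseudogene came from Pcna was not tested. Summed over both loci there were 3690 versus 3548 reads, a ratio of 1.01 (0.965 to 1.06), close to that of Pcna alone. The copies of Ccnb1 took few reads, with 2 versus 3 for Gm5593 and 4 versus 5 for Gm12856, although 277 junction windows of Ccnb1 were likewise found unbroken elsewhere.

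Levels also depend on the exon length used for RPKM, and on neighbouring genes. The deposited length equalled the union of the exons in GENCODE vM1 for 10 of the 40 genes and was longer for 30, by up to 2.08 times for Ccne2. Computed with the length of the longest coding transcript, the RPKM of Prc1 was 20.9 in the supportive library, against 3.98 as deposited. The ratio between the libraries does not depend on the length, so the order of levels among genes is less certain than the ratios. Exons of 11 of the genes overlapped those of another gene, for more than 10% of their bases in 5. These were Kif20a with Cdc23 (32.3%), Ube2c with Tnnc2 (22.8%), Ccne2 with Ints8 (17.4%) and Ccna2 with Exosc9 (14.6%), all on the opposite strand, and Mcm7 (12.6%). The overlap of Mcm7 was with Ap4m1 (7.25%) and Cops6 on the opposite strand and with Mir93 and Mir25 on its own. The TruSeq RNA kit named in the labels does not mark strand, so the origin of reads from these stretches is ambiguous. The paper states that reads without a unique gene were left out of the counts. Such reads could therefore be missing from the counts of these genes, which would lower their levels. How many reads were left out was not tested.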

How the data were processed

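RNA from each ISEMF population was sequenced as 1 library. Per the submitters' processing notes and the study's methods, the authors aligned reads to mm9 with TopHat2 2.0.4, counted unique reads per gene with HTSeq 0.5.4p3 and compared libraries with DESeq. The authors deposited whole-read counts, without normalization, and RPKM values, which are those counts divided by exon length and by library size. The deposited RPKM values imply library sizes of 71463423 and 69449374 reads. The log2 ratio and p-value columns deposited beside them hold the authors' own comparison and were not used.

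Samples were grouped by their titles. Ratios are of RPKM. Log2 ratios used a pseudocount of 0.1, which understates differences of low genes. Intervals are exact Clopper-Pearson intervals of the share of reads, at 95%. Reads without molecular identifiers are not independent molecules. With 1 library per population no test was made, and edgeR 4.0.16 (TMM) and DESeq2 1.42.0 (median of ratios) served only for scaling alternatives. The calculations were tested on simulated data. Coordinates, transcripts and 50-base windows came from GENCODE vM1 on mm9, in which exact matches on both strands were counted, and promoters from RefSeq (GRCm38.p6). The members, classes and lists were chosen with earlier results of these data known. All 40 members were to be named, and of other lists the genes with a 2-fold difference, up to 5 in each direction, and the D cyclins. The tools were scipy 1.17.1, numba 0.67.0, pandas 2.3.3 and numpy 2.4.6 under Python 3.11.15. Alternatives were pseudocounts of 1 and 0.001, a mean RPKM of 5 or none, 1.5-fold and 4-fold thresholds and 3 scalings. Removal of members with repeated windows and other exon lengths were added after seeing the data.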

Additional observations from a re-analysis of the deposited data

How the results depend on the processing

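The count of genes 2-fold higher in the supportive library was 0 and became 4 with a 1.5-fold threshold. The count of genes 2-fold lower was 2. It was 0 with a pseudocount of 1 and with a 4-fold threshold, and 1 with a mean RPKM of at least 5 (20 of the cell cycle genes tested), with TMM factors and with median-of-ratios size factors. Under these scalings Rrm2 left the call, at log2 ratios of -0.96 and -0.97. The interval lay above equality for 19 genes and below it for 10, against 25.2% and 30.2% of all genes with a read. These counts were 23 and 8 with TMM factors and 22 and 8 with median-of-ratios size factors. With reads on genes as library size they were 21 and 10. Median log2 ratios ran from 0.09 to 0.16 over all 40 genes, from -0.09 to -0.02 over S-phase genes and from 0.18 to 0.30 over G2/M genes under the alternatives run, which included the removal of genes with repeated sequence. Of 200 recomputed values of single genes 179 stayed within the counting interval of the gene. No paired analysis was possible because each population had 1 library, and for the same reason no library could be left out. Depth limits the intervals, which hold no variation between cultures.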

Other observations

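The genes for inhibitors of cyclin-dependent kinases, which hold cells before S phase, were looked at after their values were seen. Cdkn1b (p27) was at 14.2 versus 3.76 RPKM, 3.79-fold higher in the supportive library (3.58 to 4.01), and Cdkn2c (p18) was at 6.18 versus 1.31 RPKM, 4.72-fold higher (4.12 to 5.42). Cdkn1a (p21) was at 56.5 versus 97.6 RPKM, 1.73-fold lower (1.69 to 1.77), and Cdkn1c (p57), with 8 versus 405 reads, was 52.1-fold lower (26.2 to 121). The other 2 differed less, Cdkn2a with a ratio of 1.12 (0.903 to 1.38) and Cdkn2b with a ratio of 0.756 (0.655 to 0.872). The family therefore differed in both directions, and by more than any of the 40 cell cycle genes for 3 of its 6 genes. These 3 were the ones past 2-fold, 2 higher and 1 lower, against 16.3% of all genes past the minimum in either direction. Of the G1 entry genes, E2f2, an activating E2F factor below the minimum level, had 180 versus 45 reads, 3.89-fold higher (2.79 to 5.52), whereas E2f1 was lower.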
